A study of Mus musculus with 6 samples.

Results

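The Rel/NF-κB family is described here through 10 genes: the 5 DNA-binding subunits Rel, Rela, Relb, Nfkb1 and Nfkb2, and the IκB proteins Nfkbia, Nfkbib, Nfkbie, Nfkbid and Nfkbiz. They were chosen by symbol, and all 10 were found among the 24453 gene symbols of the deposited expression table. Where a symbol had several transcript rows, the row with the highest mean level over the 6 libraries was kept. The cells were regulatory T cells (Treg cells), sorted as CD4+Foxp3+ from healthy female C57BL/6 mice, with 3 WT and 3 miR-27 Tg libraries. For the controls the genotype is entered as WT Tg, a wording that the sources used here do not explain. The series text states that miR-27a is overexpressed only in Treg cells and names the animals Foxp3cre het, so the promoter of Foxp3 drives the Cre. Foxp3 lies on the X chromosome, and whether cells with and without Cre activity were separated in the sort is not stated in these sources. The labels do not state that the libraries came from different mice. The p-values therefore reflect the spread between libraries alone, and this may be technical. Where values of single libraries are listed, they stand in the order of replicates 1 to 3.

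NF-κB factors are dimers of the Rel, Rela, Relb, Nfkb1 and Nfkb2 products, held in the cytoplasm by IκB proteins until a kinase complex marks the inhibitor for degradation. Rel, which encodes c-Rel, is activated downstream of the T cell receptor and CD28 and is needed for the development of Treg cells in the thymus. Many genes of the family are themselves NF-κB targets, and Nfkbia, which encodes IκBα, is the textbook case of such negative feedback.

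MicroRNAs such as miR-27a pair through bases 2 to 8, the seed, with sites in the 3′ UTR of messenger RNAs. The mature forms of miR-27a and its homologue miR-27b, from RefSeq (GRCm38.p6), are shown because every site below is defined by them, with the seed in capitals.
mmu-miR-27a-3p (chr8:84208727-84208747, plus strand): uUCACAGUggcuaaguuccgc
mmu-miR-27b-3p (chr13:63300760-63300780, plus strand): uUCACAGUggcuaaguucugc
Both share their seed. The 7-base match to it, ACTGTGA, was searched on the transcribed strand in all annotated 3′ UTRs of the members (GENCODE M21, GRCm38) and was present in 2 of 10 genes, Rel and Nfkbib. Among 11817 tested genes with an annotated 3′ UTR, 16.7% had the match in their longest 3′ UTR.

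The sites of these genes are printed 5′ to 3′ within 30 bases of messenger RNA sequence, with the match in capitals.
Rel (chr11:23736872-23736901, minus strand): tatctttgtatACTGTGAtttttgttgatg
Nfkbib (chr7:28758597-28758626, minus strand): cctcgatggccACTGTGAatagcagctctg
The Nfkbib match is followed by an A, which makes it the form called 8mer, and starts 399 bases after the stop codon. The Rel match starts 5375 bases after the stop codon, near the end of an annotated 3′ UTR of 5418 bases. A sequence match is a description and does not show that the site is used.

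The transcript row counted for Rel (NM_009044, mm10 chromosome 11, 23741729 to 23770970, minus strand) ends upstream of that site. It spans 536 of the 5418 annotated 3′ UTR bases, or 9.89%, so the Rel values below come from the coding part and the first stretch of the 3′ UTR. For Nfkbib, the row with the highest level (NM_001306222, chromosome 7, 28759038 to 28766644) also leaves out the site, while the second row (NM_010908, 28758251 to 28766644) spans it. Shorter matches to bases 2 to 7 of the seed were present in Rel (3 sites), Nfkb1 (1), Nfkbie (1), Nfkbid (3, of which 2 are followed by an A) and Nfkbiz (1). Rela, Relb, Nfkb2 and Nfkbia had none of these matches.

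Expression was measured as RPKM, here the reads per kilobase of exon and per 10000000 reads summed over all transcript rows. Levels can so be compared between genes and libraries. These sums came to 34400000 to 42100000 per library, recovered from the spacing of low values. A read on several transcript rows of a gene counts in each of them, so the sums exceed the number of distinct reads. The Mir27a hairpin had 9, 13 and 8 reads in the WT libraries and 2921, 2206 and 2339 in the miR-27 Tg libraries, so each library matched its label. All 6 Treg cell markers (Cd3e, Cd4, Foxp3, Il2ra, Ctla4 and Ikzf2) were detected in every library, with Foxp3 at 662 to 955 RPKM. Their summed level was lower in every miR-27 Tg library, at 8171 to 8453 RPKM, than in the WT libraries, at 8935 to 9851. The sum weighs abundant markers most, and Ctla4 had the highest mean level in both groups. Fold changes were above 0 for 3 markers and below 0 for 3. Cd4 went the other way from the sum, and its groups did not overlap, as for 18.5% of all genes tested. It had 1946 ± 85.4 RPKM for WT against 2207 ± 88.0 for miR-27 Tg (SD, n = 3, limma adjusted p = 0.460). Of the 6 markers 0 passed the test by limma and 2 were lower at an unadjusted p under 0.05, against 1.03% and 8.43% of all genes tested. The lower markers were Ctla4 with 3436 ± 324 RPKM for WT against 2335 ± 234 for miR-27 Tg (SD, n = 3, limma adjusted p = 0.0868) and Ikzf2 with 585 ± 153 against 404 ± 51.8 (limma adjusted p = 0.290). The part of these differences in the values below was not tested. Markers of myeloid cells moved with the groups. Of 16 markers 15 passed the level filter, all 15 had fold changes above 0, and Itgam passed the test by limma. At an unadjusted p under 0.05, 10 of the 15 were higher and 0 lower, against 4.59% higher and 8.43% lower over all genes tested. Groups did not overlap for 5 higher and 0 lower markers, and for 18.5% of all genes tested. Cd14 was listed at 0 in at least 1 library. The summed level of all 16 markers was 377, 367 and 783 RPKM (WT) against 560, 2010 and 1202 (miR-27 Tg). Myeloid cells also express NF-κB genes, and the part of such RNA in the values below was not tested. In bulk RNA, a change in the share of a cell type and a change in RNA per cell cannot be told apart.

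The comparison asked whether miR-27 overexpression in Treg cells was accompanied by different transcript levels of the NF-κB system. For the family it was not detectably so. Of 10 members 0 passed the test, 0 had an unadjusted p under 0.05 and 0 had groups that did not overlap. Over all 13621 genes tested, 1.03% passed (0.374% higher and 0.653% lower), 13% had an unadjusted p under 0.05 (4.59% higher and 8.43% lower) and 18.5% had groups that did not overlap. The test was a moderated linear model on log2(RPKM + 1) by limma, with p adjusted by Benjamini-Hochberg across the whole set and called under 0.05. Log2 fold changes, written as miR-27 Tg minus WT, ran from -0.13 to 0.19 with a median of -0.02, and that of all genes tested was -0.01. Adjusted p ran from 0.607 to 0.994.

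Lack of a call does not show equal levels, so the 95% confidence intervals of the fold changes give what the data allow. Over the 10 members the lowest lower bound was a ratio of 0.762 (Nfkbiz) and the highest upper bound 1.41 (Nfkbia), with standard errors of 0.08 to 0.15 on the log2 scale. These intervals are per gene and not widened for the number of genes.

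**Figure D1:**
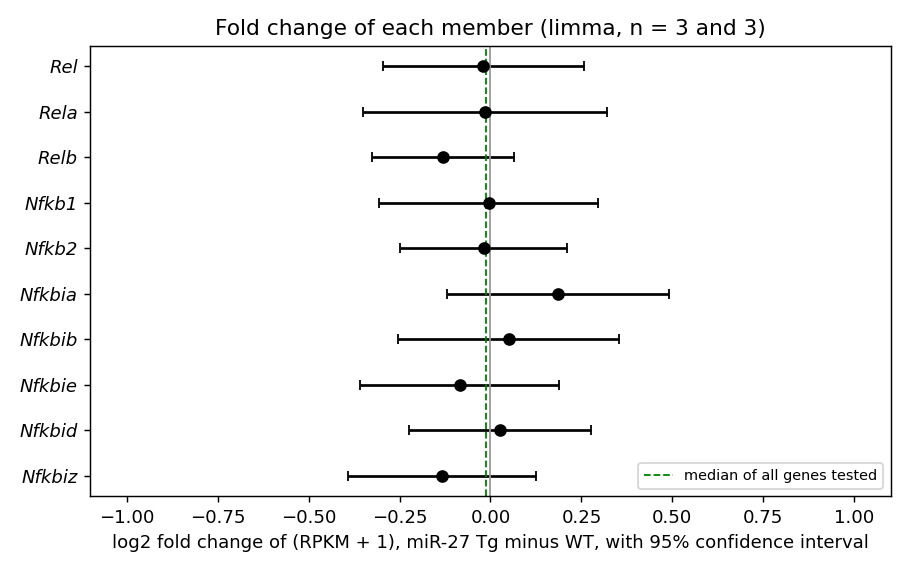
Log2 fold change of RPKM + 1 (x axis, miR-27 Tg minus WT) for each of the 10 members (y axis), as points with 95% confidence intervals from limma (3 libraries per group). Every interval spans 0, and the dashed line marks the median of all genes tested, -0.01.

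Among the subunits, Rel had 226, 222 and 185 RPKM (WT) against 222, 221 and 182 (miR-27 Tg). The groups were nearly the same in range, each with 2 libraries close together and a lower replicate 3. The mean was 211 ± 22.7 RPKM for WT against 208 ± 22.9 for miR-27 Tg (SD, n = 3), a log2 fold change of -0.02 (95% confidence interval -0.30 to 0.26, limma adjusted p = 0.972). These values rest on 1610 to 2443 reads per library.

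Rela (NM_009045, chromosome 19, 5637490 to 5648130), which encodes the transactivating subunit p65 of the most common dimer, had 407, 318 and 413 RPKM (WT) against 423, 391 and 314 (miR-27 Tg). The groups overlapped over nearly their whole range, with WT replicate 2 and miR-27 Tg replicate 3 low. Its log2 fold change was -0.01 (95% confidence interval -0.35 to 0.32, limma adjusted p = 0.984).

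Nfkb1 (NM_008689, chromosome 3, 135584655 to 135691547), whose precursor is processed to the DNA-binding subunit p50, was the most abundant subunit transcript. It had 691, 532 and 652 RPKM (WT) against 690, 632 and 543 (miR-27 Tg). The same libraries as for Rela were the lowest of their groups. The means were 625 ± 83.0 and 622 ± 74.1 RPKM (SD, n = 3), a log2 fold change of -0.01 (95% confidence interval -0.31 to 0.30).

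Relb and Nfkb2 encode the partners of the slower, non-canonical pathway, in which the Nfkb2 precursor both traps Relb and gives rise to its dimer partner. Relb (NM_001290457, chromosome 7, 19606223 to 19629438) had 206, 211 and 221 RPKM (WT) against 188, 207 and 189 (miR-27 Tg). Of the subunits it came nearest to separate groups, since only miR-27 Tg replicate 2 reached the lowest WT library. Its log2 fold change was -0.13 (SE 0.08, 95% confidence interval -0.33 to 0.07, limma adjusted p = 0.607). Nfkb2 (NM_001177370, chromosome 19, 46305930 to 46312090) had 275, 232 and 278 RPKM (WT) against 269, 261 and 244 (miR-27 Tg), with the miR-27 Tg values inside the WT range. Its log2 fold change was -0.02 (95% confidence interval -0.25 to 0.21).

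Among the classical IκB proteins, which hold dimers in the cytoplasm, Nfkbia (NM_010907, chromosome 12, 55489409 to 55492647) had 2463, 2080 and 2500 RPKM (WT) against 2596, 2347 and 3091 (miR-27 Tg). Its highest value lay in miR-27 Tg replicate 3, and the other miR-27 Tg libraries lay near or within the WT range. It had the largest difference of the family, with means of 2348 ± 233 and 2678 ± 378 RPKM (SD, n = 3) and a log2 fold change of 0.19 (SE 0.13, 95% confidence interval -0.12 to 0.49, limma adjusted p = 0.635). Without miR-27 Tg replicate 3 the log2 fold change was 0.08, and 0.28 without miR-27 Tg replicate 2.

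Nfkbib, which encodes IκBβ and has the seed match shown above in an annotated 3′ UTR, had 170, 163 and 228 RPKM (WT) against 189, 192 and 195 (miR-27 Tg). The miR-27 Tg libraries were close together and lay inside the wider WT range. Its log2 fold change was 0.05 (95% confidence interval -0.25 to 0.35, limma adjusted p = 0.929). The longer row, which spans the site, had 116, 115 and 154 RPKM (WT) against 127, 134 and 132 (miR-27 Tg), with a log2 fold change of 0.05 (SE 0.12, limma adjusted p = 0.932 with every row tested as its own feature). It had 929 to 1190 reads per library on 2056 bases, against 872 to 1169 on 1359 bases for the shorter row. Few reads were therefore its own, and most Nfkbib reads lay outside the stretch with the site. The values of the longer row say little about transcripts that carry the site. Nfkbie (NM_008690, chromosome 17, 45555700 to 45563168), which encodes IκBε, had 166, 138 and 151 RPKM (WT) against 148, 158 and 124 (miR-27 Tg), with overlapping groups and a log2 fold change of -0.08 (95% confidence interval -0.36 to 0.19).

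Nfkbid and Nfkbiz encode atypical IκB proteins that act in the nucleus, where they modify the transcription of selected NF-κB targets. Nfkbid (NM_172142, chromosome 7, 30423304 to 30428746) had 483, 388 and 475 RPKM (WT) against 488, 432 and 448 (miR-27 Tg), with overlapping groups and a log2 fold change of 0.03 (95% confidence interval -0.22 to 0.28). Nfkbiz (NM_001159394, chromosome 16, 55811377 to 55822138) had 895, 703 and 788 RPKM (WT) against 683, 699 and 785 (miR-27 Tg). WT replicate 1 stood highest, and the other 5 libraries of Nfkbiz overlapped between groups. The log2 fold change was -0.13 (SE 0.11, 95% confidence interval -0.39 to 0.12, limma adjusted p = 0.697), with -0.05 when WT replicate 1 was left out and -0.22 when WT replicate 2 was. The other 2 Nfkbiz rows gave -0.15 and -0.14.

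**Figure D2:**
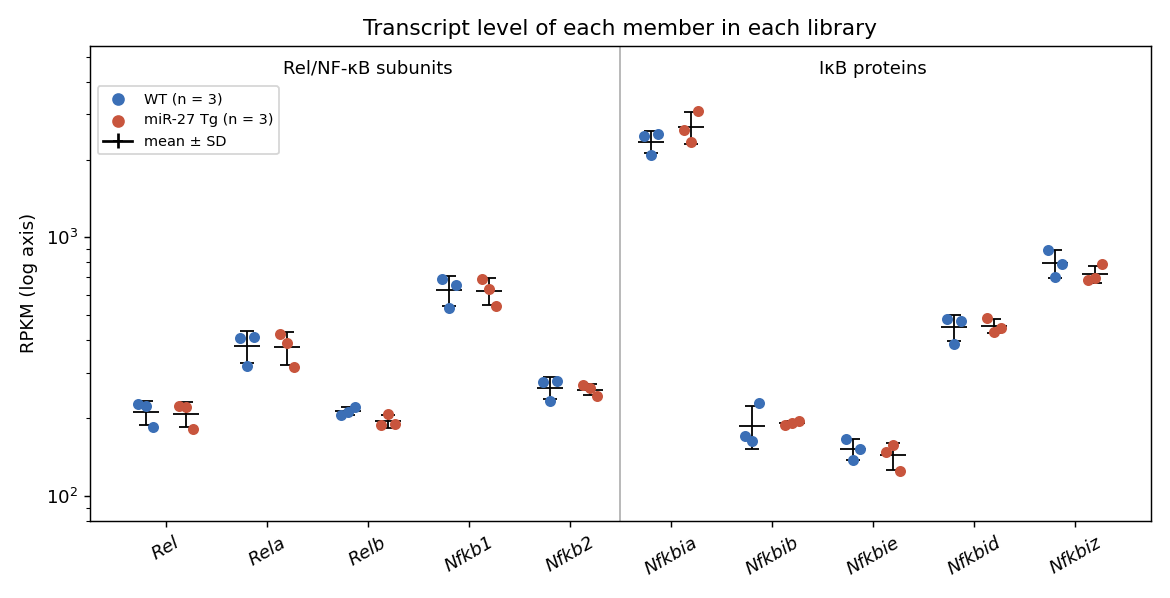
RPKM (y axis, log scale) of the 10 members (x axis) in the WT (blue) and miR-27 Tg (red) libraries, 1 point per library, with mean ± SD in black. Nfkbia lies at 2080 to 3091 RPKM, above the highest value of every other member, and the red and blue points overlap for each gene.

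The family spanned a wide range of levels within these Treg cells. By mean RPKM over the 6 libraries the order was Nfkbia (2513), Nfkbiz (759), Nfkb1 (623), Nfkbid (452), Rela (378), Nfkb2 (260), Rel (210), Relb (204), Nfkbib (189) and Nfkbie (147). Nfkbia exceeded 99.5% of the genes tested and Nfkbie 72.3%. Nfkbia, Nfkb1, Rela and Nfkb2 each lay above the next gene in 6 of 6 libraries with no overlap of their ranges. Nfkbid over Rela and Nfkbib over Nfkbie also held in 6 of 6 libraries, although the ranges overlapped. The place of Nfkbib depends on the row kept, since its longer row had a mean of 130 RPKM, below that of Nfkbie. Rel and Relb were not separated, with Rel higher in 4 of 6 libraries, nor were Relb and Nfkbib, with Relb higher in 3 of 6, and Nfkbiz was above Nfkb1 in 5 of 6.

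Nfkb1 made up 35.1 to 38.5% of the summed RPKM of the 5 subunits in the 6 libraries, Rela 20.97 to 23.6% and Rel 10.6 to 14.7%. The mean share of Rel was 12.6 ± 2.05% for WT against 12.6 ± 0.307% for miR-27 Tg (SD, n = 3). RPKM shares describe messenger RNA, not the amount of each protein.

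Libraries within a group differed more for several members than the groups did. Each member was set against its own mean over the 6 libraries on the log2(RPKM + 1) scale. In WT replicate 2, Rela stood at -0.24, Nfkb1 at -0.22, Nfkbid at -0.21 and Nfkbia at -0.26. In miR-27 Tg replicate 3, Rela (-0.26), Nfkb1 (-0.19), Nfkbie (-0.24) and Rel (-0.20) were low while Nfkbia was high (0.31). Reads per member and library numbered 872 to 16721, which gives a counting error of at most 3.39%. Within-group standard deviations on the log2 scale ranged from the 5.49th percentile of all genes tested (Relb) to the 63.6th (Rela).

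**Figure D3:**
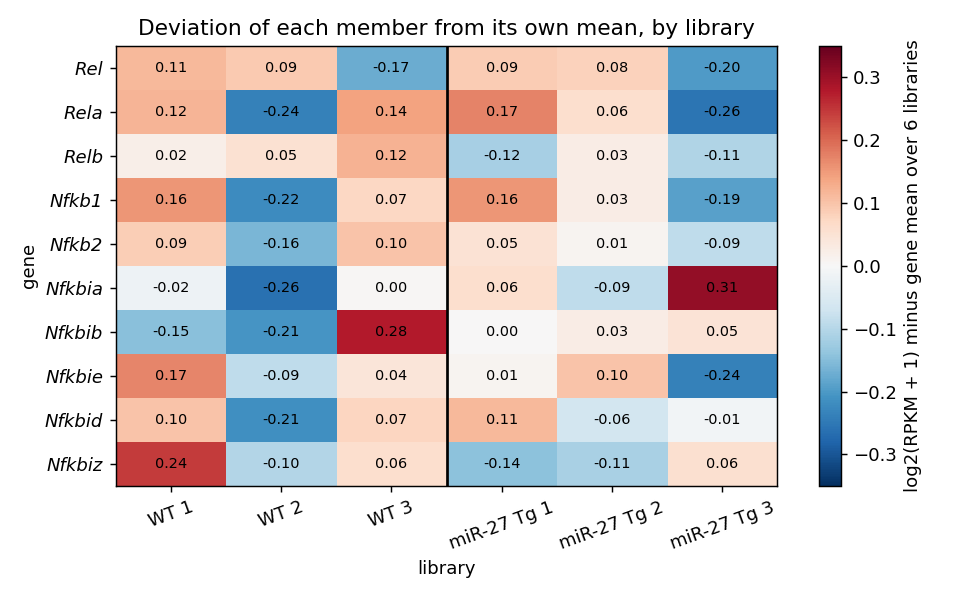
Deviation of log2(RPKM + 1) from each gene's mean over the 6 libraries (colour and printed value) for the 10 members (rows) and 6 libraries (columns), with a black line between WT and miR-27 Tg. WT replicate 2 and miR-27 Tg replicate 3 hold most of the low values, and Nfkbia stands apart in miR-27 Tg replicate 3 at 0.31.

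The summed RPKM of the 5 IκB genes over that of the 5 subunit genes was 2.31, 2.29 and 2.37 (WT) against 2.29, 2.24 and 3.16 (miR-27 Tg). This ratio was nearly constant in 5 libraries and higher in miR-27 Tg replicate 3. The ratio of Nfkbia to Rela was 6.05, 6.55 and 6.05 (WT) against 6.14, 6.01 and 9.85 (miR-27 Tg), with the same library highest. In that library Tnfaip3, another feedback inhibitor of NF-κB, had 2880 RPKM, within the WT range of 2291 to 3729. The summed myeloid markers stood at 1202 RPKM there and at 2010 in miR-27 Tg replicate 2, while single markers differed in which library was highest. The cause of the high Nfkbia value in miR-27 Tg replicate 3 was not tested.

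**Figure D4:**
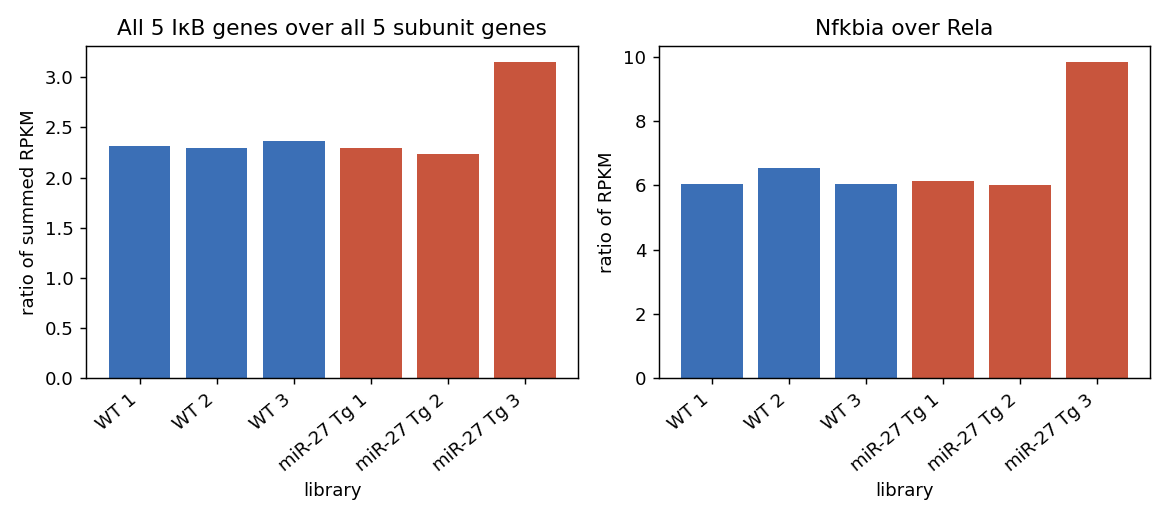
Ratio of summed IκB to summed subunit RPKM (left, y axis) and of Nfkbia to Rela RPKM (right, y axis) in each library (x axis, WT blue, miR-27 Tg red). Bars are single libraries; 5 of them lie at 2.24 to 2.37 on the left, and miR-27 Tg replicate 3 stands at 3.16.

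Genes whose profile over the 6 libraries was closest to that of Rel were sought by the root mean square distance between centred log2(RPKM + 1) values. Among the nearest were Exoc6b, a subunit of the exocyst, at 0.03, and Tpx2, a spindle factor, at 0.04. Exoc6b had 65.5, 65.9 and 53.0 RPKM (WT) against 63.8, 61.5 and 50.3 (miR-27 Tg), so replicate 3 was the lowest in each group, as for Rel. Within the family the nearest was Nfkbie at 0.12, at rank 691 among all genes in that order.

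Several members carry the κB consensus, the 10-base motif that NF-κB dimers bind, in their own promoters. Promoters of 300 bases, 250 before and 50 after a start site, were given by RefSeq (GRCm38.p6) for 7 of 10 members. On either strand, at least 1 match was found for 5 of them, Rel, Nfkb2, Nfkbia, Nfkbie and Nfkbid, and not for Rela and Nfkbib. Counting each annotated start, 7 of the 11 promoters of these members held a match, against 4.51% of all 32851 promoters. Nfkb2 gave more than 1 of the 7, and promoters of starts that lie close together can share a match. The most 5′ match of each gene is printed on the strand of the gene, in capitals within 30 bases, to show where the consensus lies.
Rel (chr11:23771042-23771071, minus strand): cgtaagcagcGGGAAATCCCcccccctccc
Nfkb2 (chr19:46304688-46304717, plus strand): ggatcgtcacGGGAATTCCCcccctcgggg
Nfkbia (chr12:55492657-55492686, minus strand): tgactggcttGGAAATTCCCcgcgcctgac
Nfkbie (chr17:45555584-45555613, plus strand): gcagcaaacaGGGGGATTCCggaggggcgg
Nfkbid (chr7:30422170-30422199, plus strand): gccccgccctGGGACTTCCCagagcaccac
They start 92, 39, 29, 106 and 226 bases before a start site, in the order printed. For Nfkb2 and Nfkbid this start site is not that of the transcript row counted above. The series holds no measurement of binding at these matches, and the transcript levels of these 5 genes are those given above.

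The rest of the pathway was described through 3 lists of genes upstream, beside and downstream of the family. Upstream kinases and adaptors carry the signal from receptors to the IκB kinase complex. Of 28 such genes 0 passed the test by limma, 2 were higher and 1 lower at an unadjusted p under 0.05, and over all genes tested that share was 13%. Their median log2 fold change was -0.0036, against -0.01 for all genes tested. Groups did not overlap for 3 higher and 5 lower genes, the ones named next among them, and for 18.5% of all genes tested. Prkcq, the protein kinase C of the T cell receptor synapse, had 912, 931 and 923 RPKM (WT) against 1089, 1032 and 1133 (miR-27 Tg). It did not pass (log2 fold change 0.23, SE 0.08, limma adjusted p = 0.264). Ripk1, a kinase of TNF receptor signalling, had 135 ± 3.20 RPKM for WT against 156 ± 8.31 for miR-27 Tg (SD, n = 3, log2 fold change 0.21, limma adjusted p = 0.353). At the other end stood Tab3, a partner of the kinase TAK1, at 49.5 ± 1.36 and 40.7 ± 1.42 RPKM (-0.28, limma adjusted p = 0.297), and Ube2n, a ubiquitin-conjugating enzyme, at 23.97 ± 0.384 and 19.96 ± 0.862 (-0.25, limma adjusted p = 0.454).

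Of 17 other inhibitors and feedback regulators 0 passed by limma, 0 were higher and 1 was lower at an unadjusted p under 0.05 (4.59% higher and 8.43% lower over all genes tested), and the median log2 fold change was -0.10. The lower gene was Tnip3, a partner of the feedback inhibitor A20, at 3.23, 4.26 and 2.90 RPKM (WT) against 1.26, 1.70 and 1.08 (miR-27 Tg) (log2 fold change -0.92, SE 0.24, limma adjusted p = 0.148). The level of Tnip3 was the lowest of the list. Groups did not overlap for 1 higher and 3 lower genes of the list, Tnip3 among them, and for 18.5% of all genes tested. Rnf11, a ubiquitin ligase that works with A20, had 99.7 ± 16.2 and 82.0 ± 0.759 RPKM (SD, n = 3, -0.27, limma adjusted p = 0.429). The highest fold changes were those of Nkiras2, which protects IκB from degradation, at 55.5 ± 5.23 and 67.3 ± 6.98 RPKM (0.27, limma adjusted p = 0.408), and of Bcl3, an atypical IκB protein, at 154 ± 26.1 and 179 ± 14.9 RPKM (0.22, limma adjusted p = 0.583). Tnfaip3, which encodes A20, had 3166 ± 768 and 2721 ± 358 RPKM (-0.20, limma adjusted p = 0.757).

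Genes that NF-κB is known to induce in T cells had larger fold changes than the factors, with a median size of 0.19 on the log2 scale against 0.04 for the family and 0.13 for all genes tested. Of 24 listed targets 23 passed the level filter and Csf2 did not. By limma 0 of the 23 passed the test, 1 was higher and 7 were lower at an unadjusted p under 0.05, against 4.59% higher and 8.43% lower over all genes tested. Of the targets 5 had a fold change above 0 and 18 below, and of all genes tested 6413 were above and 7208 below. The median log2 fold change was -0.16, against -0.01 for all genes tested. Groups did not overlap for 2 higher and 7 lower targets, and for 18.5% of all genes tested. The list was chosen with earlier results of these data known, and whether it differs from other genes was not tested.

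Cd83, a surface protein of activated lymphocytes, had 231, 330 and 199 RPKM (WT) against 84.0, 125 and 122 (miR-27 Tg). All miR-27 Tg libraries lay below all WT libraries of Cd83, and its log2 fold change was -1.18 (SE 0.22, limma adjusted p = 0.0533, and 0.0256 to 0.148 over its 15 alternatives on the gene table). Bcl2a1d, an anti-apoptotic relative of Bcl2, had 23.1, 29.8 and 19.4 RPKM (WT) against 10.9, 10.6 and 16.1 (miR-27 Tg) (-0.89, limma adjusted p = 0.124), and reads of near-identical Bcl2a1 copies may not be told apart. The most positive fold changes were those of Ier3, a stress-induced survival factor, at 5.26 ± 1.36 and 8.32 ± 1.42 RPKM (SD, n = 3, 0.59, limma adjusted p = 0.337), and of Irf1, an interferon-responsive factor, at 1222 ± 88.6 and 1393 ± 74.0 RPKM (0.19, limma adjusted p = 0.460).

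Treg cell surface receptors and Foxp3 are among the targets. Foxp3, bound by c-Rel at a conserved element of its locus, had 764 ± 89.9 RPKM for WT against 836 ± 104 for miR-27 Tg (SD, n = 3, log2 fold change 0.13, limma adjusted p = 0.750). Il2ra, a chain of the high-affinity IL-2 receptor, had 939 ± 75.4 and 1003 ± 46.2 RPKM (0.10, limma adjusted p = 0.745). The TNF receptor family members Tnfrsf9 and Tnfrsf4 had groups that did not overlap, at 308 ± 66.0 and 205 ± 29.8 RPKM (SD, n = 3, -0.57, limma adjusted p = 0.184) and at 1006 ± 256 and 718 ± 106 RPKM (-0.47, limma adjusted p = 0.337). Tnfrsf18 had 1045 ± 201 and 918 ± 188 RPKM (-0.19, limma adjusted p = 0.747). These 5 genes were chosen outside the rule for named genes, after their values were seen.

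**Figure D5:**
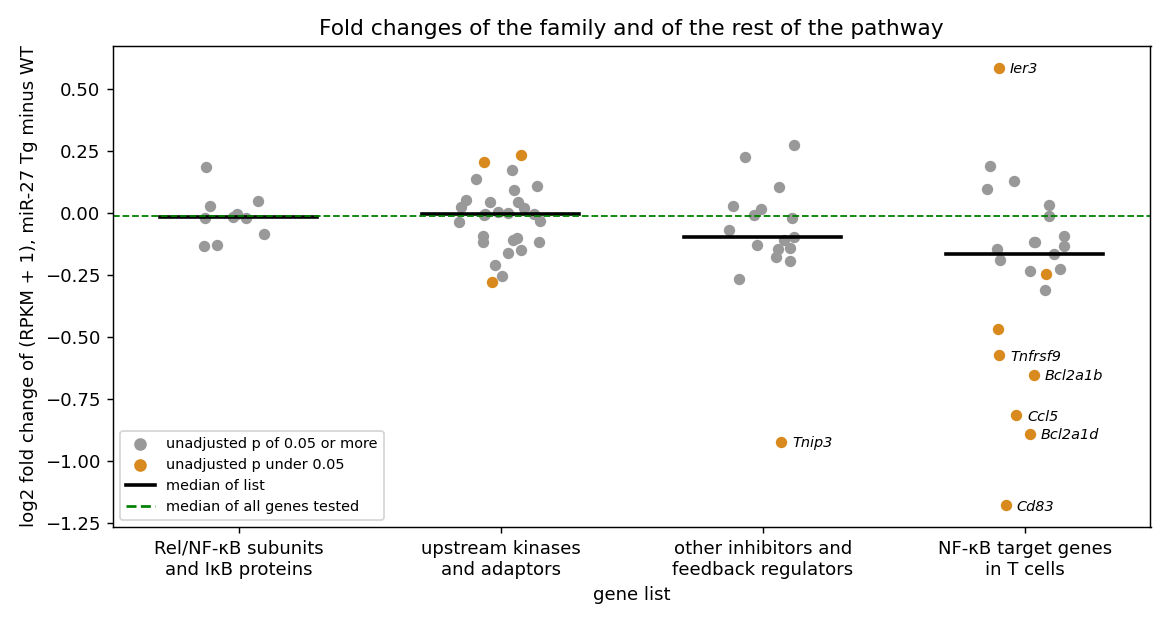
Log2 fold change of RPKM + 1 (y axis, miR-27 Tg minus WT) of each gene, 1 point per gene, in the family and the 3 other pathway lists (x axis), with unadjusted p under 0.05 in orange, list medians as black bars and the median of all genes tested as a dashed line. The family keeps within -0.13 to 0.19, while the targets reach -1.18 (Cd83).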

How the data were processed

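RNA of 3 WT and 3 miR-27 Tg libraries was sequenced after TruSeq preparation on a HiSeq 2500, per the labels. STAR version 2.2.0c and HOMER are named per the submitters' processing notes. The authors deposited 1 table of RPKM values, which HOMER made from reads in exons of mm10 RefSeq transcripts on both strands, with library totals set to 10000000, per the file headers. The treatment of reads that align to several places is not stated in these sources. Reads of overlapping genes on opposite strands are not told apart. By GENCODE M21, other genes share no exonic bases with 9 members and 0.117% with Nfkb2.

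Of 34711 transcript rows 1 per symbol was kept. A mean RPKM of 1 or more was required, and the 13621 genes left were analysed as log2(RPKM + 1), which understates changes of low genes, with limma 3.58.1 in R 4.3.3 (moderated linear model with intensity trend, two-sided, Benjamini-Hochberg over all genes, no replicate block). The script was tested on simulated data. To recover read numbers, values worth up to 20 reads were taken on transcripts from 200 to 4000 bases long, and 100% of them came to a whole number of reads (tolerance 0.1 read). No count model was used.

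The members, gene lists and tests were chosen with earlier results of these data known. The genes named are all members, the 2 highest and the 2 lowest fold changes of each pathway list together with any gene past the threshold, and the 3 profiles nearest to Rel, of which 1 is not reported here. Genes named outside this rule (Tnfaip3, Foxp3, Il2ra, Cd4, Ctla4, Ikzf2, Tnfrsf4, Tnfrsf9, Tnfrsf18 and, in the closing section, Bcl2a1b and Ccl5) were chosen after their values were seen. Other cell type lists were B cell and CD8 T and NK cell markers. For B cells, limma called 0 of 9 tested markers, and 1 reached an unadjusted p under 0.05. Of 7 tested CD8 T and NK cell markers 1 (Nkg7) passed and was lower. Directions were mixed, with 4 fold changes above 0 and 3 below, and 1 higher and 2 lower at an unadjusted p under 0.05. Over all genes tested 1.03% passed, and 4.59% were higher and 8.43% lower at an unadjusted p under 0.05. The summed level of all 8 listed CD8 T and NK cell markers overlapped between groups, at 196 to 261 RPKM (WT) and 180 to 295 (miR-27 Tg). Alternatives covered the pseudocount, level filter, scaling, trend, library weights, replicate block, transcript row and each library left out.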

Additional observations from a re-analysis of the deposited data

How the results depend on the processing

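Under 16 alternative settings 0 of the 10 members passed in any, and the lowest adjusted p of a member by limma was 0.420 (Nfkbia with a replicate block). Their log2 fold changes ranged from -0.22 to 0.28 over 157 refits, of which 132 kept their sign and 25 changed it. Relb, Nfkbia and Nfkbiz kept their sign in all of theirs. With equal library medians Rel, Rela, Nfkb1 and Nfkb2 changed to 0.017, 0.021, 0.031 and 0.017. With array weights Rel, Nfkbib and Nfkbid changed to 0.064, -0.048 and -0.045, and with quantile normalization Nfkbid changed to -0.0013. Leaving out each library in turn gave -0.11 to 0.075 for Rel, -0.14 to 0.11 for Rela, -0.12 to 0.088 for Nfkb1, -0.10 to 0.026 for Nfkb2, -0.040 to 0.20 for Nfkbib, -0.16 to 0.013 for Nfkbie and -0.074 to 0.083 for Nfkbid.

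Over all genes 140 passed (51 higher, 89 lower). The count was 48 with no filter, 225 with array weights, 276 with the replicate block, 237 among all transcript rows and 4 to 56 with a library left out; the cause was not tested. Of the NF-κB targets, 1 passed with a mean RPKM of at least 5 (Cd83), 2 with quantile normalization, equal library medians or array weights (Cd83 and Bcl2a1b in each), 3 with the replicate block (with Ccl5) and 2 rows of Cd83 among all transcript rows. Each of these was lower in miR-27 Tg. Same-numbered libraries are not stated to be paired, and their deviations from the group means correlated at 0.368, 0.0971 and 0.0368 for replicates 1 to 3. Pairs with different numbers ranged from -0.222 (WT replicate 2 with miR-27 Tg replicate 1) to 0.154 (WT replicate 2 with miR-27 Tg replicate 3). As no pairing is stated, the replicate number was not used in the main fit. Whether same-numbered libraries share a batch was not tested.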

Other observations

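Within the summed RPKM of the 5 IκB genes, Nfkbiz took 21.4, 20.2 and 19.0% (WT, in replicate order) against 16.6, 18.3 and 16.9% (miR-27 Tg). Nfkbia took 59.0, 59.9 and 60.4% (WT) against 63.3, 61.3 and 66.6% (miR-27 Tg). For both shares the groups did not overlap, although the RPKM values of each gene did. For the shares of Nfkbib, Nfkbie and Nfkbid, and of each subunit within the subunit sum, the groups overlapped. Over all genes tested, 18.5% had RPKM groups that did not overlap. The shares within a sum add to a whole and so are not independent of each other. Those of Nfkbiz and Nfkbia were noticed after the values were seen, and their difference was not tested.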
